A study of Drosophila melanogaster with 9 samples.

Results

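The nuclear pore complex genes of Drosophila melanogaster were followed through 3 phases of spermatogenesis, mitotic, meiotic and post-meiotic. A probe set was taken as a member where its current gene symbol started with Nup and a digit, or was mbo, Mtor, Ndc1, Elys, Sec13, Gp210 or Rae1. The rule gave 25 probe sets for 25 genes, 1 probe set each, of 18769 probe sets tested, and it used no measured value. The members fall into 10 genes of the outer ring, 6 of the inner ring, 2 of the central channel, 4 of the cytoplasmic face, 2 of the nuclear basket and 1 of the pore membrane. Nup58 and Gp210 have no probe set in the annotation used and were not analysed here. Mtor now carries the symbol Mgtor, which the rule does not name, so its values are given beside the members and are not counted with them.

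The nuclear pore complex is the main passage for proteins and RNA through the nuclear envelope. Stacked rings of scaffold nucleoporins line the pore in the membrane, and nucleoporins with phenylalanine and glycine repeats fill its channel and let transport receptors pass. Filaments on the cytoplasmic side and a basket on the nuclear side bind receptors, the Ran system and messenger RNA. In the fly testis, spermatocytes grow for a long time with a large nucleus and high transcription, whereas spermatids condense their nuclei and shed nuclear pores.

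RNA came from testes of virgin males of the wild-type TEMPE T strain, which is free of Wolbachia, aged 6 to 10 days, with 250 to 500 testes for each replicate. Apical tips gave the mitotic samples, cells pressed out of the middle region gave the meiotic samples, and detached distal regions gave the post-meiotic samples, with 3 replicates for each phase on 9 Affymetrix Drosophila Genome 2.0 arrays. No group carried a mutation or a treatment. A phase is thus a dissected region in which somatic cells and germ cells of other phases are present too, and fewer cells of a type cannot be told apart from less RNA per cell.

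All levels are the authors' log2 hybridization intensities, and a change of 1 is a 2-fold change. The median level of all probe sets lay between 6.36 and 6.54 in the 9 arrays, and arrays of the same phase correlated with r between 0.9929 and 0.9983 across probe sets. Genes that mark the phases were checked by their own changes. All 4 measured spermatogonial genes (aub, bam, bgcn and zpg) fell in both steps, and all 7 spermatid genes rose from the mitotic to the meiotic samples. In the second step 4 of the 7 spermatid genes rose, 1 fell (Mst77F, -0.21) and 2 were not called. The 8 spermatocyte genes separated the meiotic from the post-meiotic samples, with 8 lower in the latter, but the mitotic from the meiotic samples less clearly: fzo and bol were higher in the meiotic samples, 4 were lower and 2 were not called.

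Most nuclear pore genes were highest in the mitotic samples and declined in both steps. The median level of the 25 members was 9.90, 9.95 and 10.03 in the 3 mitotic arrays, 9.41, 9.50 and 9.47 in the meiotic arrays and 7.57, 7.57 and 7.51 in the post-meiotic arrays. The arrays of the 3 phases did not overlap in this median, and the greater part of the decline lay after the meiotic samples. By their mean levels, 22 of the 25 genes were highest in the mitotic samples and 22 were lowest in the post-meiotic samples. How often all probe sets show this order of phases was not counted. Elys and Nup54 were highest in the meiotic samples, and Ndc1 in the post-meiotic samples.

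**Figure D1:**
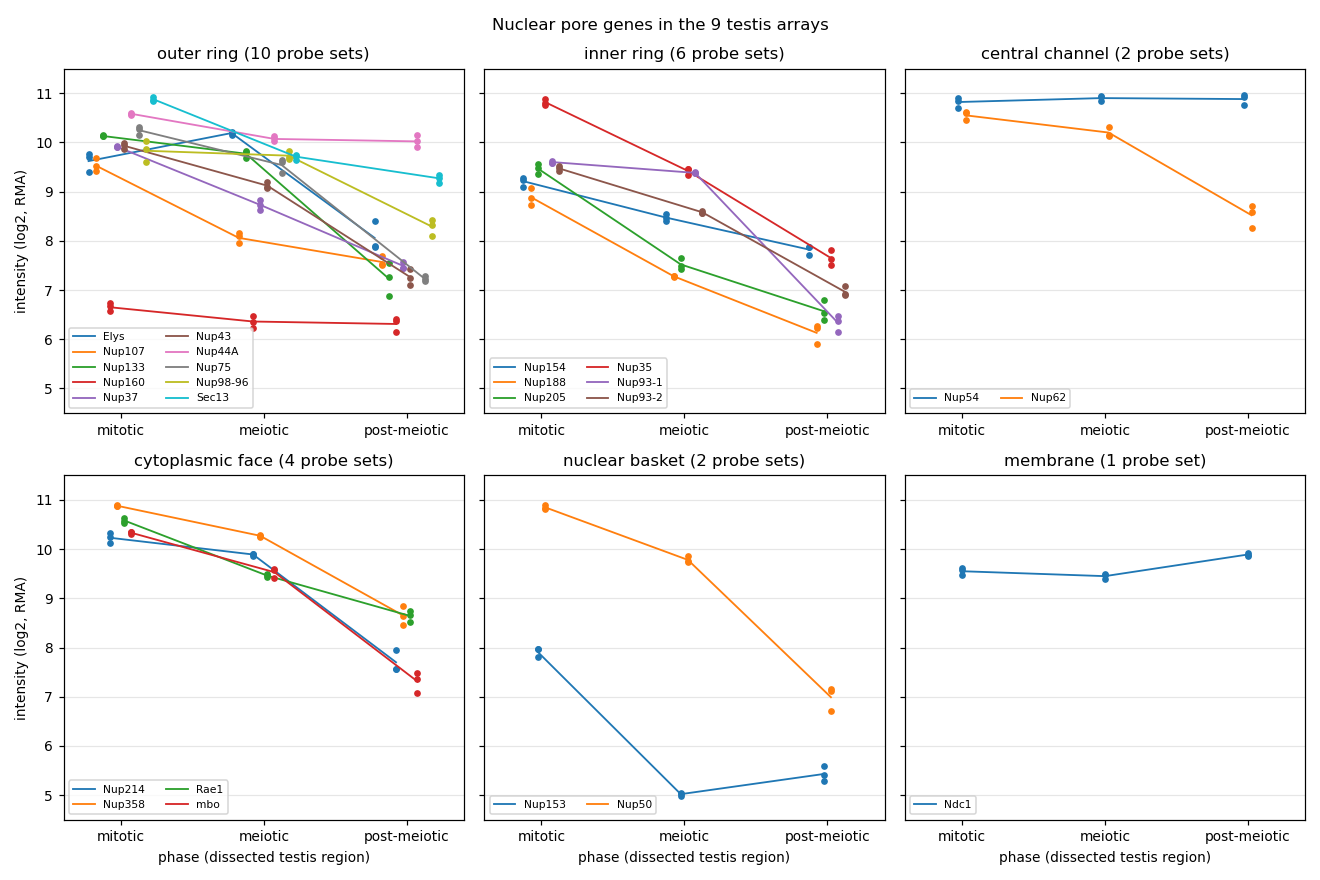
Log2 hybridization intensity (vertical axis) of the 25 nuclear pore probe sets in the mitotic, meiotic and post-meiotic samples (horizontal axis), 1 panel for each part of the pore. Each point is 1 of 3 arrays and each line joins the means of a gene. Most lines descend to the right, whereas Nup54 stays between 10.70 and 10.97, Ndc1 ends at 9.86 to 9.93, and Nup153 drops to 4.99 to 5.04 in the meiotic samples.

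From the mitotic to the meiotic samples, 20 of the 25 members fell and 1 rose, and 4 were not called (limma, two-sided, Benjamini-Hochberg adjusted p under 0.05 over all probe sets). Among all probe sets tested, 26.3% were called lower and 24.3% higher in this step. The median change of the members was -0.74, whereas that of all probe sets was 0.06. In 21 members all 3 meiotic arrays lay below all 3 mitotic arrays, an order seen in 29.2% of all probe sets. At least 2-fold lower and called were 9 members, Nup153 among them, beside 1887 of all 18769 probe sets. All members had a mean level of at least 6, and 39.9% of the 11135 probe sets that reached this cut were called lower. The cut lies below the median of every array (6.36 to 6.54), whereas the median member was at 9.90 to 10.03 in the mitotic arrays. It thus does not match most members in brightness. An exact permutation test of 3 arrays against 3 cannot give a two-sided p below 0.1, so single genes were tested only in the fit across all probe sets.

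From the meiotic to the post-meiotic samples, 20 members fell, 2 rose and 3 were not called, with a median change of -1.45. Among all probe sets 27.8% were called lower and 37.8% higher, and the median change was 0.13. The post-meiotic arrays lay below the meiotic arrays without overlap in 20 members and in 28.3% of all probe sets. At least 2-fold lower and called were 15 members, beside 2808 of all 18769 probe sets. Of the probe sets with a mean level of at least 6, 43.4% were called lower. The meiotic arrays enter both steps, so the changes of a gene in the 2 steps are not independent of each other. Members called lower in both steps numbered 17 of 25, beside 13.7% of all probe sets. That share includes dim probe sets, and it was not computed for those with a mean level of at least 6.

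Over the whole span from the mitotic to the post-meiotic samples, 23 members fell, Ndc1 rose and Nup54 was not called. Background shares for this comparison were 29.5% lower and 49.6% higher among all probe sets, and 45.9% lower among those with a mean level of at least 6. The median change of the members was -2.42 against 0.21 for all probe sets, and 23 members were lower without overlap of the arrays against 29.6% of all probe sets. At least 2-fold lower and called were 21 members, beside 3795 of all 18769 probe sets. When arrays were centred on their medians, the median change of all probe sets became -0.02 from the meiotic to the post-meiotic samples, where 57.7% of the calls were of higher levels before centring and 43% after it. Cyclic loess between arrays, which evens out differences that depend on intensity, gave medians of 0.01 in that step and in the whole span, and it moved the share of higher calls in the whole span from 62.7% to 50.3%. The members were called lower in 20 cases after centring and 18 after loess from the meiotic to the post-meiotic samples, and in 23 and 22 cases over the whole span.

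**Figure D2:**
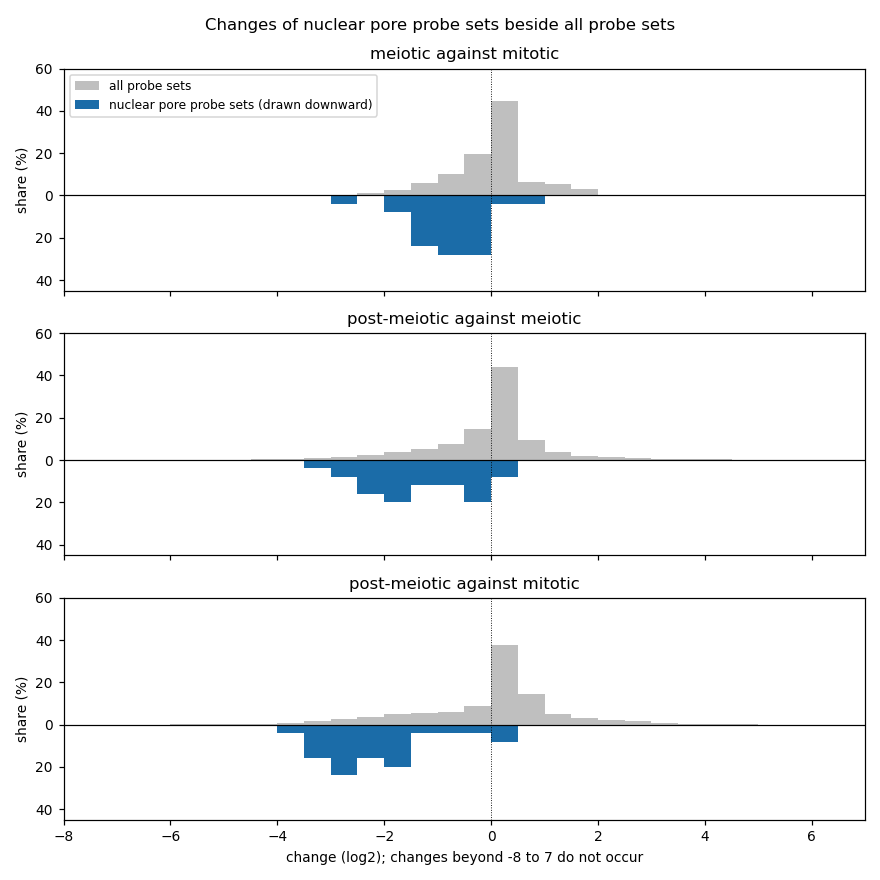
Distribution of log2 changes (horizontal axis) as a share in percent (vertical axis) for all 18769 probe sets (grey, upward) and for the 25 nuclear pore probe sets (blue, downward) in each comparison of phases. The members lie mainly left of 0, with medians of -0.74, -1.45 and -2.42, whereas the medians of all probe sets are 0.06, 0.13 and 0.21.

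The outer ring, or Y complex, is the scaffold that coats both faces of the pore. In the first step 8 of its 10 genes fell, Elys rose and Nup98-96 was not called, with a median change of -0.61. In the second step 8 fell and Nup160 and Nup44A were not called, with a median of -1.34. Over the whole span all 10 were called lower, though Nup44A was not after loess.

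Nup107, a core subunit of the Y complex after which it is often named, had the largest change of the outer ring from the mitotic to the meiotic samples. Its level was 9.41, 9.51 and 9.68 in the mitotic arrays, 7.95, 8.09 and 8.15 in the meiotic arrays and 7.50, 7.69 and 7.53 in the post-meiotic arrays. The phases did not overlap, and the drop came mostly before the meiotic samples. The change was -1.47 (SE 0.09, adjusted p = 3.65e-08) in the first step and -0.49 (SE 0.09, adjusted p = 5.53e-04) in the second, and the latter was 0.0038 after cyclic loess (adjusted p = 0.978).

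Nup133, a Y complex subunit at the end of its stalk, fell at the other step. Levels of Nup133 were 10.12, 10.12 and 10.14 in the mitotic arrays, 9.80, 9.69 and 9.83 in the meiotic arrays and 7.55, 7.27 and 6.88 in the post-meiotic arrays. The first 2 phases lay close together, and the post-meiotic arrays were far below both and had the largest spread of any member in this phase (SD 0.34). From the meiotic to the post-meiotic samples Nup133 changed by -2.54 (SE 0.13, adjusted p = 1.92e-09), the largest change of the outer ring in that step. Its change of -0.36 in the first step (adjusted p = 0.0387) lost the call when any 1 of the 6 mitotic and meiotic arrays was left out (adjusted p between 0.0617 and 0.115), after centring (0.0907) and after loess (0.444).

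Elys, which binds chromatin and seeds new pores when the envelope reforms after division, was the one member to rise in the first step. It measured 9.70, 9.39 and 9.77 in the mitotic arrays, 10.22, 10.20 and 10.16 in the meiotic arrays and 7.90, 8.41 and 7.87 in the post-meiotic arrays. All meiotic arrays were above all others, and all post-meiotic arrays were below all others. The rise was 0.58 (SE 0.14, adjusted p = 0.00342) and the following fall -2.13 (SE 0.14, adjusted p = 1.70e-08).

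Nup98-96 encodes the precursor of both Nup98, a repeat nucleoporin, and Nup96, a Y complex subunit. Which part of the transcript its probe set covers was not examined. The arrays of Nup98-96 were at 9.87, 9.60 and 10.03 in the mitotic samples, 9.67, 9.83 and 9.70 in the meiotic samples and 8.33, 8.43 and 8.10 in the post-meiotic samples. The mitotic and meiotic arrays overlapped (change -0.10, 95% interval -0.36 to 0.15, adjusted p = 0.497), whereas the post-meiotic arrays were below both (change -1.45, SE 0.12, adjusted p = 1.47e-07).

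Nup44A and Nup160 fell in the first step and were not called in the second, although loess changed the second result of both. Nup44A, the fly Seh1, which also serves in a regulator of TOR signalling, measured 10.60, 10.55 and 10.58, then 10.12, 10.08 and 10.02, and finally 10.15, 10.02 and 9.90. The mitotic arrays were above the rest (change -0.50, adjusted p = 1.73e-04), and the meiotic and post-meiotic arrays overlapped (change -0.05, 95% interval -0.23 to 0.13, adjusted p = 0.605). The second change of Nup44A was 0.35 after loess (adjusted p = 8.36e-04), so its direction and its call depend on the normalization, and over the whole span the fall of Nup44A (-0.56) was -0.15 and not called after loess (adjusted p = 0.0734). The probe set of Nup44A belongs to a class that can hybridize to more than 1 transcript, and the span of the gene overlaps ACC, which changed by 0.37 and then by -1.40. What ACC contributes to the values of Nup44A was not tested.

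Nup160, a large Y complex subunit, had a dim probe set and small changes. Its arrays were at 6.67, 6.73 and 6.57 in the mitotic samples, 6.36, 6.48 and 6.23 in the meiotic samples and 6.15, 6.41 and 6.37 in the post-meiotic samples. Only the mitotic arrays stood apart, with a first change of -0.30 (adjusted p = 0.0211) and a second of -0.05 (95% interval -0.26 to 0.16, adjusted p = 0.655). The first call of Nup160 was lost without mitotic replicate 1 (adjusted p = 0.0562) or 2 (0.0828), without meiotic replicate 1 (0.0534) or 3 (0.102), and after centring (0.0539). The second change of Nup160 was called lower after loess (-0.28, adjusted p = 0.0164). RfC38, whose span overlaps that of Nup160, changed by -1.83 and -0.79, and its part in the values of Nup160 was not tested.

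The remaining outer ring genes fell in both steps. Nup37 and Nup43, small propeller subunits of the Y complex, changed by -1.18 and -0.81 in the first step and by -1.24 and -1.86 in the second. Nup75, the counterpart of vertebrate Nup85, changed by -0.71 and then by -2.31. Sec13, which is shared with the COPII coat of secretory vesicles, changed by -1.17 and then by -0.44, and the second change was -0.02 after loess (adjusted p = 0.892).

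The inner ring anchors the scaffold to the membrane and to the repeat nucleoporins of the channel. All 6 of its genes had meiotic arrays below the mitotic arrays without overlap, 5 of them were called, and the median change was -1.14. In the second step all 6 fell, with a median of -1.39. Over the whole span each of the 6 was at least 2-fold lower, with changes from -3.27 to -1.39.

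Nup205, a large solenoid protein of the inner ring, had the largest first change among its genes. It measured 9.36, 9.47 and 9.57 in the mitotic arrays, 7.43, 7.49 and 7.65 in the meiotic arrays and 6.54, 6.79 and 6.40 in the post-meiotic arrays. The 3 phases formed separate steps, with changes of -1.94 (SE 0.11, adjusted p = 1.27e-08) and -0.95 (SE 0.11, adjusted p = 4.55e-06). Nup188, a structural relative of Nup205, changed by -1.61 and then by -1.16. Between 36.4% and 46.1% of all probe sets were dimmer than that of Nup188 in the post-meiotic arrays. Whether this level of Nup188 lies above background was not tested.

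The fly has a pair of Nup93 genes, which link the inner ring to the channel, and their probe sets differed in timing. Nup93-1, on the X chromosome, was at 9.62, 9.59 and 9.58 in the mitotic arrays, 9.39, 9.38 and 9.37 in the meiotic arrays and 6.48, 6.15 and 6.37 in the post-meiotic arrays. Almost all of its decline came after the meiotic samples, with a change of -3.05 (SE 0.09, adjusted p = 1.09e-11), the largest of all members in that step and 8.28-fold lower. In the post-meiotic arrays between 42.3% and 49.8% of all probe sets were dimmer than that of Nup93-1. Whether this level lies above background was not tested. The first change of Nup93-1, -0.22, was not called (95% interval -0.41 to -0.02, adjusted p = 0.0581), although the arrays did not overlap. That change passed without post-meiotic replicate 1 (adjusted p = 0.0269) or 2 (0.0231) and with the 6 arrays of the step alone (0.0107), and it was 0.07 after loess (0.578).

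Nup93-2, on arm 3R, was at 9.48, 9.41 and 9.51 in the mitotic arrays, 8.57, 8.61 and 8.57 in the meiotic arrays and 6.91, 6.90 and 7.08 in the post-meiotic arrays. It fell in both steps, by 0.88 (SE 0.08, adjusted p = 5.93e-07) and by 1.62 (SE 0.08, adjusted p = 9.63e-10) on the log2 scale. The difference in timing between the 2 genes was not tested.

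Nup154, the fly Nup155, is known from mutants with defects in both male and female gametogenesis. Its level was 9.09, 9.24 and 9.28 in the mitotic arrays, 8.40, 8.55 and 8.46 in the meiotic arrays and 7.88, 7.87 and 7.71 in the post-meiotic arrays. The phases did not overlap, and the changes of -0.74 (adjusted p = 7.96e-06) and -0.65 (adjusted p = 2.09e-05) were of similar size. The second was the smallest of the inner ring and was -0.14 after loess (adjusted p = 0.13). Nup35, a membrane-binding subunit, changed by -1.40 and then by -1.77, and over the whole span it was 8.99-fold lower.

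The central channel genes differed from each other although their proteins assemble into 1 complex with Nup58. Nup54 was level, at 10.91, 10.70 and 10.85 in the mitotic arrays, 10.92, 10.94 and 10.84 in the meiotic arrays and 10.97, 10.92 and 10.76 in the post-meiotic arrays. Its arrays overlapped between all phases, with a first change of 0.07 (95% interval -0.12 to 0.27, adjusted p = 0.517), a second of -0.01 (-0.21 to 0.18, adjusted p = 0.896) and 0.06 over the whole span (-0.13 to 0.25, adjusted p = 0.532). After loess Nup54 was called higher in the second step (0.31, adjusted p = 0.00341) and over the whole span (0.26, adjusted p = 0.00929).

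Nup62, the other channel nucleoporin measured, measured 10.61, 10.59 and 10.46, then 10.32, 10.15 and 10.13, and finally 8.71, 8.58 and 8.27. The phases did not overlap, and the post-meiotic arrays stood farthest apart, with a second change of -1.68 (SE 0.11, adjusted p = 1.95e-08). Its first change of -0.35 (adjusted p = 0.0178) lost the call without mitotic replicate 1 (adjusted p = 0.0618) or 2 (0.0592), without meiotic replicate 2 (0.0592) or 3 (0.0676), and after centring (0.0548). The annotated span of Nup54 overlaps CG43204, for which no probe set was named, and that of Nup62 overlaps no other gene.

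On the cytoplasmic face, where export complexes are released, all 4 genes fell in both steps, with medians of -0.71 and -1.91. Rae1, a propeller protein that takes part in the export of messenger RNA, had the largest first change and the smallest second change. Its arrays were at 10.53, 10.58 and 10.64 in the mitotic samples, 9.43, 9.49 and 9.47 in the meiotic samples and 8.75, 8.66 and 8.51 in the post-meiotic samples. The changes of Rae1 were -1.12 (SE 0.08, adjusted p = 1.11e-07) and -0.82 (SE 0.08, adjusted p = 1.39e-06).

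Nup214, a filament protein that binds export factors, was at 10.33, 10.13 and 10.24, then 9.90, 9.86 and 9.91, and finally 7.57, 7.57 and 7.95. It had the smallest first change of this face (-0.34, adjusted p = 0.0155), which lost the call without mitotic replicate 1 (adjusted p = 0.0662) and after loess (0.416). The second change of Nup214 was -2.19 (SE 0.11, adjusted p = 8.66e-10).

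Its partner mbo, the fly Nup88, which restrains protein export by the exportin emb, was at 10.34, 10.34 and 10.31 in the mitotic arrays, 9.41, 9.58 and 9.60 in the meiotic arrays and 7.49, 7.36 and 7.08 in the post-meiotic arrays. The phases did not overlap, and the second change of mbo (-2.22, SE 0.10, adjusted p = 6.15e-10) was the largest of this face. Nup358, the large filament protein that docks the Ran GTPase-activating protein, changed by -0.61 and then by -1.62.

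The nuclear basket held the largest change of any member in the first step. Nup153, a repeat nucleoporin of the basket encoded on the X chromosome, was at 7.97, 7.96 and 7.81 in the mitotic arrays, 4.99, 5.04 and 5.02 in the meiotic arrays and 5.59, 5.41 and 5.28 in the post-meiotic arrays. The meiotic samples were the lowest, the post-meiotic arrays lay slightly above them without overlap, and the mitotic arrays were far above both. The first change was -2.90 (SE 0.09, adjusted p = 6.09e-10) and the second was 0.41 (SE 0.09, adjusted p = 0.00155). In the meiotic arrays between 21% and 23.4% of all probe sets were dimmer than that of Nup153. Without detection calls it was not tested whether these dim levels lie above background, so no fold is given for Nup153. After loess the second change was 0.12 and was not called (adjusted p = 0.375).

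Nup50, the partner of Nup153, binds importins and helps to release their cargo. It measured 10.84, 10.81 and 10.89 in the mitotic arrays, 9.74, 9.75 and 9.85 in the meiotic arrays and 7.12, 7.15 and 6.71 in the post-meiotic arrays. The phases were widely separated, with changes of -1.07 (SE 0.11, adjusted p = 2.02e-06) and -2.79 (SE 0.11, adjusted p = 1.17e-10). Over the whole span Nup50 had the largest change of all members, -3.86, which is 14.5-fold lower. The gene coil, whose span overlaps that of Nup50, changed by -0.16 (adjusted p = 0.395) and then by -3.06 (adjusted p = 5.48e-10), and its part in the second change of Nup50 was not tested.

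Mgtor, formerly Mtor, forms the long filaments of the basket and is given beside the members. Its arrays were at 10.51, 10.47 and 10.51 in the mitotic samples, 9.35, 9.42 and 9.48 in the meiotic samples and 7.67, 7.46 and 7.40 in the post-meiotic samples. It fell in both steps without overlap, by 1.08 (SE 0.09, adjusted p = 2.12e-07) and by 1.91 (SE 0.09, adjusted p = 4.56e-10) on the log2 scale.

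Ndc1, a protein that spans the pore membrane and anchors the scaffold there, was the only member called higher in the post-meiotic than in the mitotic samples. It was at 9.47, 9.61 and 9.57 in the mitotic arrays, 9.47, 9.50 and 9.39 in the meiotic arrays and 9.86, 9.88 and 9.93 in the post-meiotic arrays. The first 2 phases overlapped (change -0.10, 95% interval -0.26 to 0.07, adjusted p = 0.324), and all post-meiotic arrays were above all others. The rise was 0.43 in the second step (SE 0.08, adjusted p = 2.53e-04) and 0.34 over the whole span (SE 0.08, adjusted p = 0.00141), small beside the falls of most members. CG13601, whose span overlaps that of Ndc1, moved the other way in the second step, with a change of -1.40 (adjusted p = 5.39e-08).

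**Figure D3:**
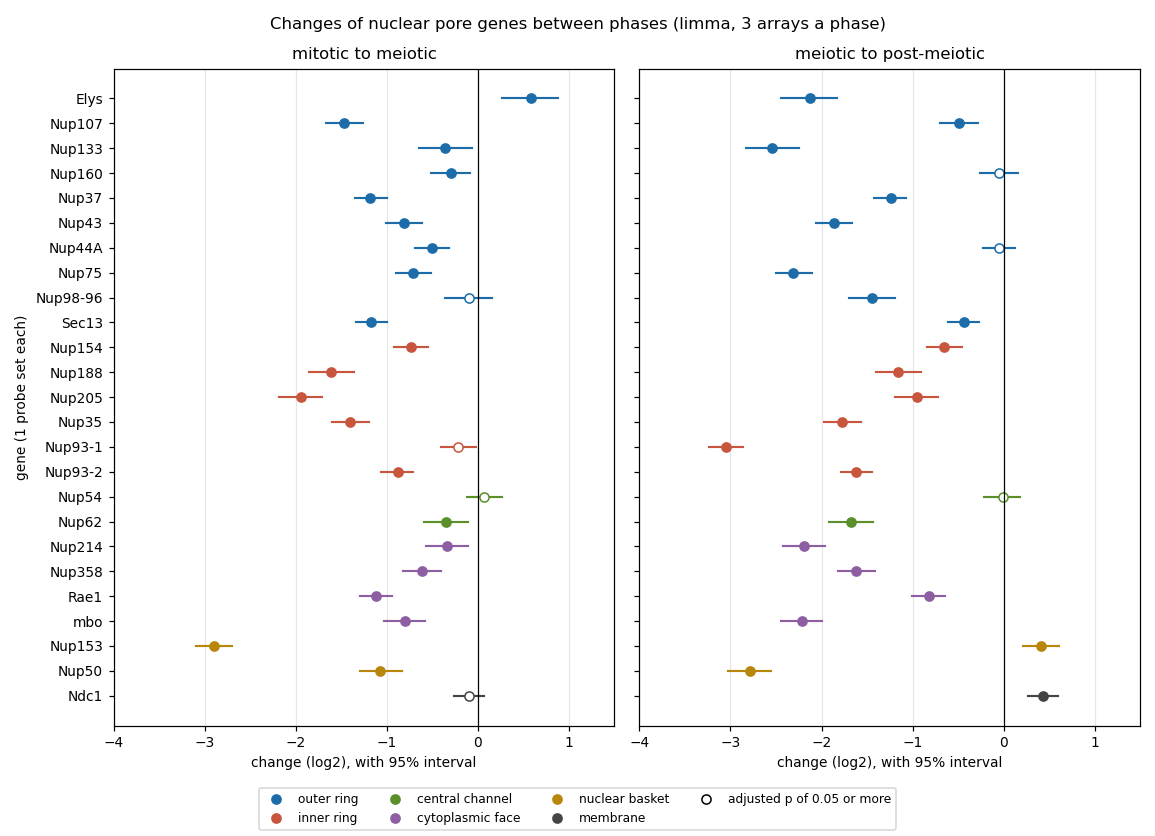
Log2 change (horizontal axis, with 95% interval) of each nuclear pore gene from the mitotic to the meiotic samples (left) and from the meiotic to the post-meiotic samples (right), coloured by part of the pore. Filled points passed an adjusted p of 0.05. Nup153 lies farthest left in the first step at -2.90 and Nup93-1 in the second at -3.05, whereas Elys in the first step (0.58) and Nup153 (0.41) and Ndc1 (0.43) in the second lie right of 0.

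The study asked how genes on the X chromosome behave in male meiosis, and 5 members lie on the X: Nup93-1, Nup153, Nup35, Elys and Nup205. In the first step 3 of these fell, Elys rose and Nup93-1 was not called, and their changes ran from -2.90 to 0.58 with a median of -1.40. Of the 20 autosomal members, 17 fell and 3 were not called, with a median of -0.72. The X therefore held both the largest fall and the only rise of the members in this step. In the second step the X-linked members had a median of -1.77, with 4 lower and 1 higher, and the autosomal members -1.34, with 16 lower, 1 higher and 3 not called. The difference between chromosomes was not tested, and 5 genes are few. Across the genome, 12 of the 25 members have an annotated span that overlaps another gene and 13 do not. Of the overlapping genes not named above, Hou (at Nup35), Dpy-30L1 (at Nup107), Art8 (at Nup154) and Naus (at Nup75) were called lower in both steps. CG14860 (at Nup93-2) was called lower in the first step only, ND-B12 (at Rae1) in neither, and mir-4965 (at Nup153) had no probe set named. What any overlapping gene contributes to the values of a member was not tested.

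The factors that move cargo through the pore were set beside its structural genes, with 1 probe set a gene. Of 21 listed transport genes, 19 were measured. In the first step 14 fell and 3 rose, with a median of -0.72, and in the second 13 fell and 1 rose, with a median of -0.48. In the first step the largest changes were those of Nxt1, a cofactor of messenger RNA export (-3.17, adjusted p = 1.74e-10), emb, the main protein exportin (-2.35, adjusted p = 2.39e-08), and msk, an importin (-1.45, adjusted p = 2.67e-08).

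Nxt1 was at 10.35, 10.46 and 10.40 in the mitotic arrays, 7.23, 7.11 and 7.35 in the meiotic arrays and 6.95, 6.89 and 6.93 in the post-meiotic arrays, so that nearly all of its decline preceded the meiotic samples. In the second step the largest changes were those of the importin Kap-alpha1 (-2.92, adjusted p = 6.24e-12), of Cse1, which returns importin alpha to the cytoplasm (-2.64, adjusted p = 3.79e-10), and of Aladin, a peripheral pore protein that the rule does not name (-1.83, adjusted p = 1.46e-09). The transport genes that rose were Ntf-2r (0.92), Pen (0.47) and Kap-alpha1 (0.33) in the first step and Ran (0.58) in the second, a selection made after their values were seen. Ntf-2r is an autosomal copy of the Ran carrier gene Ntf-2, which changed by -1.27 in the first step. The probe set of Ran belongs to the same class as that of Nup44A and can hybridize to other transcripts too.

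Genes of the nuclear envelope and lamina were set beside the pore genes too. Of 10 listed genes 8 were measured, and the lamin genes Lam and LamC were not. In the first step 2 rose, 3 fell and 3 were not called, with a median of -0.23. Msp300, a giant nesprin that ties nuclei to the cytoskeleton, rose by 1.51 (adjusted p = 1.07e-07), and spag4, a testis protein of the SUN family, by 1.27 (adjusted p = 4.17e-05). LBR, the lamin B receptor, fell by 0.65 (adjusted p = 8.75e-05) on the log2 scale.

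In the second step 7 of the 8 envelope genes fell and Msp300 rose (0.64), with a median of -1.90. LBR was at 8.26, 8.49 and 8.44 in the meiotic arrays and 4.77, 5.04 and 4.71 in the post-meiotic arrays, a change of -3.55 (adjusted p = 8.10e-12) and the largest among pore, transport and envelope genes in this step. Whether the dim post-meiotic level of LBR lies above background was not tested. The probe set of LBR belongs to the same class as that of Nup44A and can hybridize to other transcripts too. The next largest in the list were spag4 (-2.95, adjusted p = 8.21e-09) and koi, the general SUN protein (-2.23, adjusted p = 1.26e-10). No difference between the lists was tested.

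**Figure D4:**
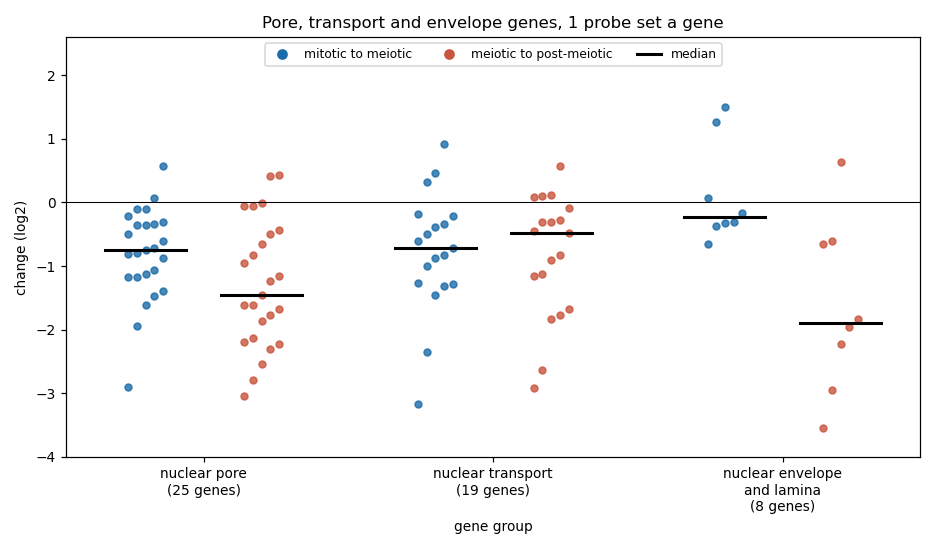
Log2 change (vertical axis) of 25 nuclear pore, 19 nuclear transport and 8 nuclear envelope and lamina genes (horizontal axis, 1 point a gene) from the mitotic to the meiotic samples (blue) and from the meiotic to the post-meiotic samples (red), with medians as black bars. The medians of the pore genes are -0.74 and -1.45, those of the transport genes -0.72 and -0.48, and those of the envelope genes -0.23 and -1.90.

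Somatic markers also differed between the regions. All 3 measured sheath muscle genes fell in the first step and rose in the second, Mlc2 the most, then up (3.14) and Tm2 (2.47). Their summed log2 level was 17.56 to 19.04 in the mitotic arrays, 15.03 to 15.38 in the meiotic arrays and 24.06 to 25.58 in the post-meiotic arrays. Of 5 hub and cyst cell genes, 3 fell in the first step, and in the second hh rose by 2.85, zfh1 fell by 0.29 and 3 were not called. Their summed level was 31.73 to 32.11, then 29.33 to 29.61, and finally 31.86 to 32.45. The higher last sum reflects mainly hh, with means of 4.40, 4.46 and 7.31 in the 3 phases, whereas zfh1 had means of 7.37, 5.61 and 5.32.

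Of 5 accessory gland genes, Acp36DE changed by 0.43 in the first step and -3.72 in the second, and Acp76A by 0.29 and 0.23. The other 3 were not called in either step. The summed level of the accessory gland genes was 26.80 to 27.08 in the mitotic, 27.20 to 27.98 in the meiotic and 23.56 to 24.37 in the post-meiotic arrays. The lower last sum reflects Acp36DE, with means of 8.05, 8.48 and 4.76 in the 3 phases. Means of Acp26Aa, Acp63F, Acp76A and SP stayed between 4.02 and 5.61 in all phases. No marker can be at 0 on this scale. The part of somatic RNA in the changes of the pore genes, and in the rises of Ndc1 and Nup153 in the distal region, was not tested.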

How the data were processed

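RNA of 3 testis regions was measured on 9 arrays. The deposited values are log2 intensities that the authors obtained by RMA, with its background correction and a quantile normalization, in Bioconductor, with a version not given in the sources used here, and without pooling replicates. Quantile normalization gives the arrays nearly equal distributions, so changes are relative to the bulk of probe sets. No raw intensities or detection calls were used here, and the number of arrays limits the precision. After 183 control probe sets were left out of 18952, 18769 were fitted by lmFit and eBayes of limma 3.58.1 under R 4.3.3, with 9 arrays in 1 fit, two-sided tests and Benjamini-Hochberg adjustment over all probe sets at a threshold of 0.05. The fit was tested on simulated data. Symbols come from the array annotation, updated by gene ID, and 13647 probe sets carry 1 symbol. Lists use the brightest probe set of a gene. Labels call the replicates biological.

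Every pore gene could be named. In each part of the pore, values by array are given for the largest and smallest change in each step and for members called against the majority of their part. Up to 3 called transport and envelope genes with the largest change in each step are named. The members and lists were chosen with earlier results of these data known. Alternatives were centred arrays, cyclic loess, a filter at a mean of 6, no cross-hybridizing probe sets, 1 probe set per gene, the arrays compared alone, a replicate block and omission of single arrays. Tables were handled with pandas 2.3.3 in Python 3.11.15 and figures drawn with matplotlib 3.10.9.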

Additional observations from a re-analysis of the deposited data

How the results depend on the processing

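The counts of nuclear pore genes called lower stayed within 1.5 times of the reported counts under every alternative run, and no median changed sign. After centring arrays on their medians the median change was -0.67, -1.59 and -2.50 (meiotic against mitotic, post-meiotic against meiotic and post-meiotic against mitotic), and after cyclic loess it was -0.54, -0.96 and -1.73. Loess called 2 members higher, not 1, in the post-meiotic against the mitotic samples. Without probe sets open to cross-hybridization the median from the meiotic to the post-meiotic samples was -1.53. With 1 array left out, the medians ran from -0.80 to -0.70, from -1.52 to -1.35 and from -2.46 to -2.40, and the first count of lower members from 16 to 21, with 16 without mitotic replicate 1.

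Changes of single genes turned sign in 14 cases. From the mitotic to the meiotic samples, loess gave Ndc1 0.03, Nup93-1 0.07, Nup98-96 0.10 and Nup54 -0.05. From the meiotic to the post-meiotic samples it gave Nup44A 0.35, Nup107 0.0038 and Nup54 0.31. In that step, with 1 array left out, Nup160 ran from -0.11 to 0.03 (0.01 without meiotic replicate 2 and 0.03 without post-meiotic replicate 1), Nup44A from -0.12 to 0.01 (0.01 without post-meiotic replicate 3) and Nup54 from -0.06 to 0.05 (0.01 without meiotic replicate 2 and 0.05 without post-meiotic replicate 3). In the post-meiotic against the mitotic samples Nup54 was -0.02 after centring, and it ran from -0.00086 without mitotic replicate 2 to 0.12 without post-meiotic replicate 3. The cause was not tested. A call was lost in 25 cases and gained in 8, and no call turned to the other direction. The same call held under every alternative run for 20, 18 and 23 of the 25 members in the 3 comparisons.

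Replicate numbers are shared between phases, but same-numbered arrays deviated together only in part (r between -0.0862 and 0.36 across probe sets), so they were not treated as pairs. With a replicate block, 1, 2 and 1 members were called higher and 20, 20 and 23 lower, with medians of -0.74, -1.45 and -2.42. Groups of 3 arrays are too small to single out an array.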
